A study of Sus scrofa with 9 samples.

Results

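MicroRNA copies in the longissimus dorsi, the long muscle along the back, were compared between pigs aged 180 days and pigs aged 30 days. All libraries came from female pigs of the Jinhua strain, and no treatment, transgene or mutation is named in the labels. Day 180 had 3 libraries and day 30 had 1. The series held 9 libraries from 15 pigs. The others were 1 library of fetuses at gestation day 90, 1 of newborns (day 0) and 3 of pigs aged 7 years, and they entered here mainly through the estimate of spread. Which pigs went into which library was not given in the sources used here, and a p-value covers only how these libraries vary, perhaps for technical reasons. The arms described are all those with 10 or more copies in at least 1 of the 4 libraries of these ages. A precursor hairpin can give 2 arms, 1 from its 5p side and 1 from its 3p side. The selected arms were 140 of the 526 entries in both deposited tables, namely 46 of 100 conserved entries, which carry names of known miRNA families, and 94 of 426 putative new ones. Putative new arms are named here PN with the start of their listed interval. After entries with the same sequence and the same copies were merged, 46 conserved and 90 putative new arms remained, out of 100 and 395.

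A microRNA is cut from a hairpin precursor as a duplex, of which usually one arm is kept in the silencing complex while the other is degraded. The kept arm pairs with messenger RNAs mainly through its seed, the bases from position 2 to position 8, so that arms with one seed can share targets. In skeletal muscle, microRNAs take part in the switch of progenitor cells to differentiated fibres. The DLK1-DIO3 region, an imprinted domain whose many microRNAs are transcribed from the maternal chromosome, is known for high expression in fetal and newborn muscle and in muscle progenitor cells.

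The sequences that carry the main differences are given first, 5′ to 3′ as the deposited tables list them in DNA letters, with the seed in capitals. The first set holds the DLK1-DIO3 arms whose lower level at day 180 was called under every processing alternative tried, in the order of the size of the change.
miR-411c-3p: tGTATGTCaactgatccacagt
miR-376d-3p: aTCATAGAggaaaatccacat
miR-655-3p: aTAATACAtggttaacctcttt
miR-377-3p: aTCACACAaaggcaacttttgt
miR-485-3p: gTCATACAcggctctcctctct
miR-539-3p: aTCATACAaggacaatttcttt
miR-485-3p and miR-539-3p share the seed TCATACA, and miR-376d-3p shares TCATAGA with miR-376b-3p. The next set holds the 3 arms called higher at day 180, with miR-5105-3p as it was listed in the day 180 libraries.
PN-7444591-3p: tTTGTTGGctcctctgaagtga
miR-5105-3p: cTTCTGATcgaggccc
miR-411c-5p: gGTTGATCagagaacatacatt
The last set holds the most abundant arms of these tables at both ages.
miR-26b-5p: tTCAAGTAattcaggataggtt
miR-431-5p: tGTCTTGCaggccgtcatgc

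The day 180 libraries held 12259667, 10435597 and 9024703 high-quality reads, and the day 30 library held 3476614. Levels are given as copies per 1000000 high-quality reads (RPM). The arms of both tables took 0.322%, 0.257% and 0.277% of the reads at day 180 and 1.04% at day 30. Summed over both tables this was 2856 ± 335 RPM (SD, n = 3) at day 180 and 10426 RPM at day 30. A floor of 3 copies corresponded to 0.245, 0.288 and 0.332 RPM in the day 180 libraries and to 0.863 RPM in the day 30 library, so a low arm could be missed more easily at day 30. Arms without a value in a library are called not listed and were counted as 0. Copies in the day 180 replicates varied beyond counting error: the chi-square per degree of freedom was 11.1, 14.2 and 23.4 in the 3 pairs. These values take each entry by itself and empty cells as 0, so an arm listed in some replicates only adds to them. Over the 20 arms with 100 or more copies in every day 180 library, the coefficient of variation between the replicates ran from 1.41% (miR-655-3p) to 43.9% (miR-6529-5p), with a median of 20.8%. In bulk tissue, fewer cells of a type and less RNA per cell cannot be told apart.

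Most differences ran towards lower levels at day 180. Of the arms, 116 could be tested and 20 could not, and 31 were called lower and 3 higher at day 180 (edgeR quasi-likelihood test, Benjamini-Hochberg adjusted p under 0.05). Over all 175 arms tested in the tables, 20% were called lower and 1.71% higher, and 51 had an unadjusted p under 0.05. Of the lower ones 22 were conserved and 9 putative new, and of the higher ones 2 were conserved and 1 was putative new. The day 30 value lay above all 3 day 180 values for 74 arms, below all 3 for 25 and among them for 37. Among the 358 arms of the tables listed in any of the 4 libraries, 38.8% had the day 30 value above and 9.22% below. The rule of 10 copies was met at both ages by 53 arms, at day 30 only by 29 and at day 180 only by 54. For arms that met it at a single age, the selection itself favours a higher value at that age. The counts above include such arms. Among the conserved arms called lower, miR-154b-5p, miR-188-3p, miR-208a-3p, miR-376d-3p and miR-541-5p met the rule at day 30 only. So did every putative new arm called lower, apart from PN-870046-5p and PN-870046-3p.

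These levels are per read of the library, and another scaling gave another split. The median log2 fold change, day 180 over day 30, was −1.11 over the tested arms. TMM factors aim to set the bulk of the tested arms to no change, and the log2 fold changes moved up by a median of 1.27. Both medians are pulled towards 0, because tested arms without copies at either age stay at 0 under any scaling. The tested putative new arms had a median of 0 with both scalings. miR-26b-5p moved further, from −2.15 to −0.63. With TMM factors 9 arms were called lower and 6 higher, against 5.14% and 3.43% of all tested arms, or 8.57% in both directions together. Per read the share in both directions was 21.7%. All 9 were among the 31, and the 3 arms called higher per read were called higher with TMM factors too. The direction of the log2 fold change turned with TMM factors for 21 tested arms, none of them called with either scaling.

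**Figure D1:**
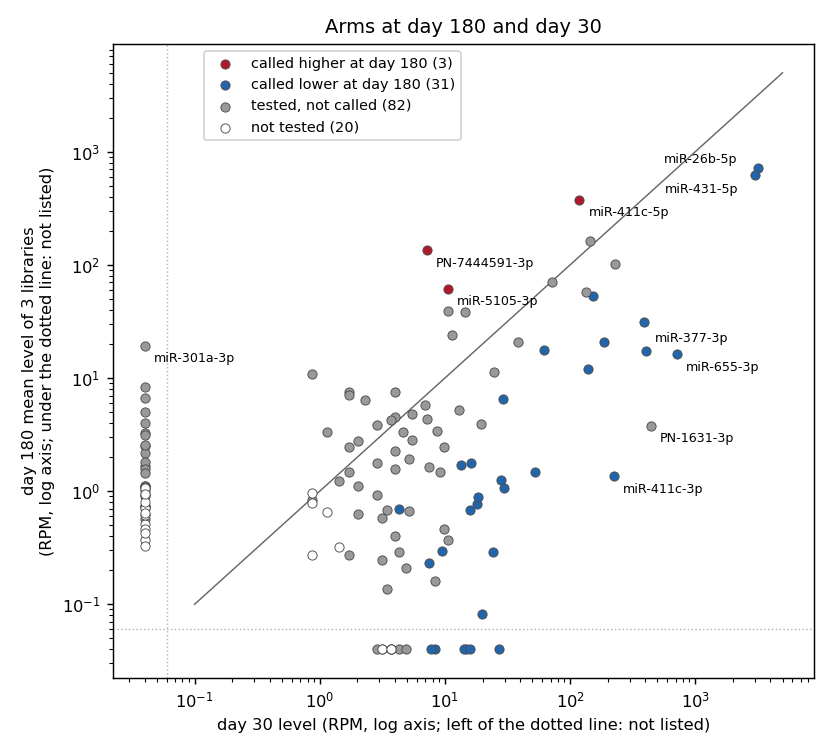
Mean level of the 3 day 180 libraries (vertical, RPM, log axis) against the level in the day 30 library (horizontal, RPM, log axis) for all 46 conserved and 90 putative new arms. Each point is 1 arm, the line marks equal levels, and points beyond the dotted lines were not listed at that age. The 31 arms called lower lie under the line and the 3 called higher lie above it.

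Arms of the DLK1-DIO3 list made up 15 of the 31 called lower. Arms were placed on this list by miRNA family number and not by position. Of its arms described here, only miR-431-5p carries a named chromosome. The list holds 28 arms of the tables, of which 16 had 10 or more copies at these ages, and all 16 could be tested. The remaining 1, miR-411c-5p, was called higher at day 180. With TMM factors 7 were called lower and miR-411c-5p again higher, and the other 8 were not called. Of the 25 arms of the list tested in the tables, 18 were called lower and 1 higher, against 20% and 1.71% of all tested arms. Their median log2 fold change was −4.36, and with TMM factors it was −3.07. Over all tested arms it was −1.11, a median pulled towards 0 by arms without copies at either age. The list summed to 1250, 1054 and 1143 RPM at day 180 and to 5346 RPM at day 30, which was 4.65 times the day 180 mean of 1149 ± 98.1 RPM (SD, n = 3). As a share of the copies in both tables the list took 40.3 ± 1.36% at day 180 (SD, n = 3) and 51.3% at day 30. With 1 library at day 30, sums and shares carry no test.

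**Figure D2:**
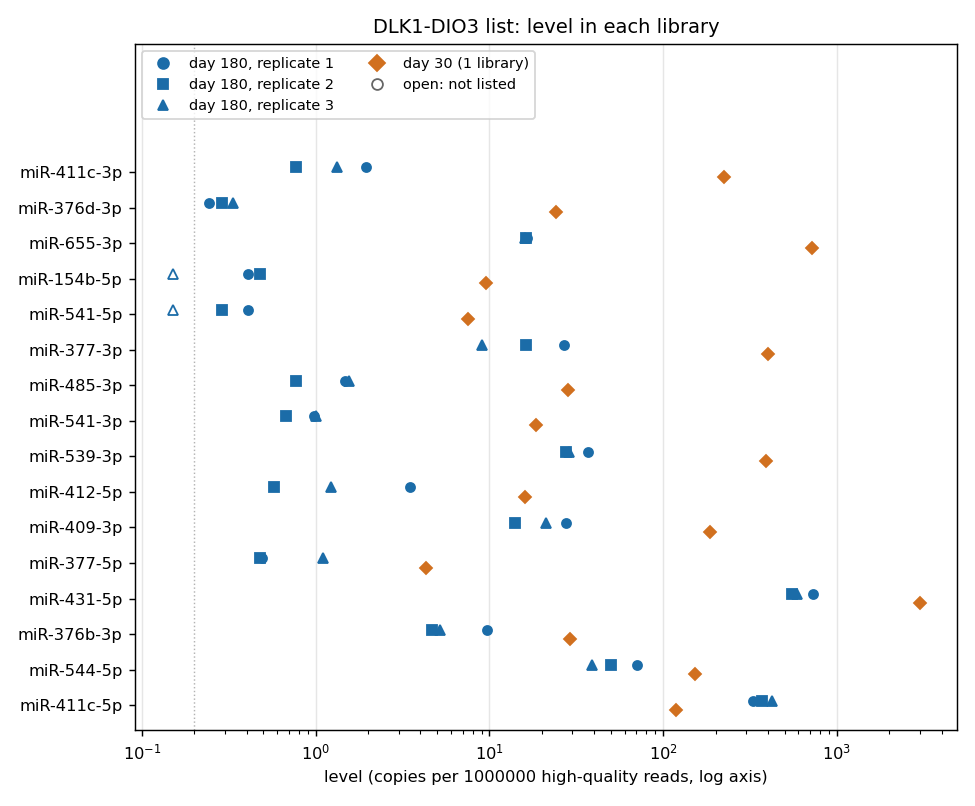
Level (RPM, log axis) of the 16 DLK1-DIO3 arms in each library, ordered from the lowest to the highest fold of day 180 over day 30. Day 180 replicates are blue, the day 30 library is orange, and open symbols left of the dotted line were not listed. The day 30 value lies above all 3 day 180 values in 15 rows and below them in the row of miR-411c-5p.

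miR-655-3p stood at 16.4, 16.3 and 15.96 RPM at day 180 and at 721 RPM at day 30. The replicates of day 180 lay closer together than for any other of the 20 abundant arms, and the day 30 library was 44.5 times their mean (log2 fold change −5.47 ± 0.33 SE, edgeR adjusted p = 4.27e-07). With TMM factors the log2 fold change was −3.94 (edgeR adjusted p = 3.22e-05).

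miR-377-3p had 26.8, 16.2 and 9.09 RPM at day 180 and 402 RPM at day 30. The groups did not overlap, although the day 180 replicates lay far from each other (log2 fold change −4.53 ± 0.62 SE, edgeR adjusted p = 0.000351, with TMM factors −3.07 and 0.0111). Its partner arm miR-377-5p was rarer, with 0.489, 0.479 and 1.11 RPM at day 180 and 4.31 RPM at day 30, and was called lower (edgeR adjusted p = 0.0309), but not without day 180 replicate 1 (0.0857) or 2 (0.156), nor without 7 years replicate 1, 2 or 3 (0.0583, 0.109 and 0.0536).

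miR-539-3p and miR-485-3p, which carry one seed, were both lower at day 180. miR-539-3p stood at 37.0, 27.4 and 28.8 RPM at day 180 and at 389 RPM at day 30 (log2 fold change −3.65 ± 0.44 SE, edgeR adjusted p = 0.000146, with TMM factors −2.13 and 0.00466). miR-485-3p stood at 1.47, 0.767 and 1.55 RPM at day 180 and at 28.2 RPM at day 30 (−4.46 ± 0.51 SE, edgeR adjusted p = 0.000248, with TMM factors −2.95 and 0.0167). Both were above every day 180 library at day 30, and the fold was close to 12.5 for the abundant arm and 22.3 for the rare one.

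The pair with the seed TCATAGA came from the miR-376 family. miR-376d-3p had 3 copies in each day 180 library, or 0.245, 0.287 and 0.332 RPM, and 84 copies or 24.2 RPM at day 30. The ratio of day 30 to the pooled day 180 libraries was 85.2, with an exact 95% counting interval from 42.8 to 193 (edgeR adjusted p = 4.08e-05, with TMM factors 0.00466). In day 180 replicate 1 its most abundant sequence carried the substitution A6G against the day 30 sequence, counted from 1 at the 5′ end, on those 3 copies. miR-376b-3p had 9.63, 4.70 and 5.21 RPM at day 180 and 29.1 RPM at day 30 (log2 fold change −2.15 ± 0.55 SE, edgeR adjusted p = 0.0161). That call ended with TMM factors (0.552) and without day 180 replicate 2 (0.0825), day 180 replicate 3 (0.0584) or 7 years replicate 2 (0.0752).

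miR-431-5p, a microRNA with a described role in muscle progenitor cells of the mouse, was the most abundant arm of the list. Its precursor lies on chromosome 7, 132097559 to 132097659, plus strand, of the assembly Sscrofa10. It stood at 724, 548 and 592 RPM at day 180 and at 3006 RPM at day 30, without overlap (log2 fold change −2.27 ± 0.34 SE, edgeR adjusted p = 0.000477). Relative to the bulk of arms the difference was smaller and not called (TMM log2 fold change −0.76, edgeR adjusted p = 0.217).

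miR-409-3p stood at 27.7, 14.1 and 21.3 RPM at day 180 and at 186 RPM at day 30 (log2 fold change −3.14 ± 0.41 SE, edgeR adjusted p = 0.000477, with TMM factors −1.64 and 0.0419). Day 30 was above all day 180 libraries. With DESeq2 size factors its adjusted p was 0.0719. miR-544-5p had the smallest fold of the list, with 70.8, 50.3 and 38.9 RPM at day 180 and 152 RPM at day 30 (−1.51 ± 0.47 SE, edgeR adjusted p = 0.0382). Relative to the bulk of arms it was at −0.02 with TMM factors and at 0.14 with DESeq2 size factors. Its call also ended without day 180 replicate 2 (0.128) or 3 (0.135) and without 7 years replicate 1 (0.0594), 2 (0.108) or 3 (0.0575).

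The remaining arms of the list were rare at day 180. miR-541-3p had 0.979, 0.671 and 0.997 RPM at day 180 and 18.4 RPM at day 30 (edgeR adjusted p = 0.00139), and miR-541-5p, which day 180 replicate 3 did not list, had 0.408 and 0.287 RPM in the other two and 7.48 RPM at day 30 (0.0114). miR-412-5p had 3.51, 0.575 and 1.22 RPM at day 180 and 16.1 RPM at day 30 (edgeR adjusted p = 0.0232). miR-154b-5p had 0.408, 0.479 and 0 RPM at day 180 and 9.49 RPM at day 30 (edgeR adjusted p = 0.0142). None of these 4 arms was called with TMM factors (adjusted p from 0.196 to 0.319). Without day 180 replicate 2 the adjusted p was 0.128 for miR-541-5p and miR-154b-5p and 0.0949 for miR-412-5p. Without 7 years replicate 2 it was 0.108, 0.119 and 0.151 in the same order, and without 7 years replicate 1 it was 0.0538 for miR-154b-5p and 0.0759 for miR-412-5p. miR-412-5p was also not called without day 180 replicate 3 (0.174) or 7 years replicate 3 (0.0575).

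The arms of the miR-411c precursor moved in opposite directions. The hairpin, of 92 bases, is shown because both arms are on it, with the 5p arm and then the 3p arm in capitals.
mir-411c: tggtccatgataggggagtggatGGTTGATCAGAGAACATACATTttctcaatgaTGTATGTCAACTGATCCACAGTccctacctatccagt
miR-411c-3p stood at 1.96, 0.767 and 1.33 RPM at day 180 and at 223.5 RPM at day 30 (log2 fold change −7.35 ± 0.61 SE, edgeR adjusted p = 4.08e-05, with TMM factors −5.87 and 0.00157). miR-411c-5p stood at 328, 371 and 425 RPM at day 180 and at 119 RPM at day 30 (1.65 ± 0.53 SE, edgeR adjusted p = 0.0446, with TMM factors 3.20 and 0.00831). Neither arm overlapped between the ages. The call of the 5p arm per read ended without day 180 replicate 2 (0.128) or 3 (0.162) and without 7 years replicate 1 (0.0773) or 2 (0.151), while that of the 3p arm held in each of these fits. Over the whole series, in the order of age, miR-411c-5p was at 50.97 RPM in the fetus, 93.3 RPM at day 0, 119 RPM at day 30, 374.7 ± 48.1 RPM at day 180 (SD, n = 3) and 265 to 603 RPM at 7 years. miR-411c-3p was at 246, 78.3 and 223.5 RPM up to day 30, at 1.35 ± 0.596 RPM at day 180 (SD, n = 3) and was not listed at 7 years.

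The balance of the arms does not depend on how libraries are scaled. The 5p arm made up 99.4%, 99.8% and 99.7% of the miR-411c copies at day 180 and 34.8% at day 30. The exact 95% interval of the day 30 share, 32.1% to 37.5%, was far from all those of day 180, of which the lowest began at 99.1%. Intervals cover counting error only. Of 24 hairpins with both arms listed in the tables and 10 or more copies of both together in each of the 4 libraries, 6 had a day 30 share whose interval overlapped none of the day 180 intervals. For PN-870046 and PN-5388442 among them, day 180 replicates were also apart from each other. The interval of PN-870046 was 40.2% to 50.3% in replicate 1 and 22.5% to 33.7% in replicate 2. That of PN-5388442 was 23.4% to 26.5% in replicate 1 and 26.6% to 30.4% in replicate 2. In these hairpins such a gap alone does not set age apart from library.

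The 5p share of miR-330 was 91.6%, 89.0% and 87.8% at day 180 and 57.1% at day 30 (exact 95% interval 41.0% to 72.3%). All day 180 libraries were above day 30. miR-330-5p stood at 6.199, 7.00 and 3.99 RPM at day 180 and at 6.90 RPM at day 30, so the groups overlapped. miR-330-3p stood at 0.571, 0.862 and 0.554 RPM at day 180 and at 5.18 RPM at day 30, and neither arm was called (edgeR adjusted p = 1 for 5p and 0.331 for 3p), while the 3p arm was called lower with the conserved table tested alone (0.0313) and with 2 copies put in empty cells (0.00159). The putative new hairpin PN-5388442 (chromosome 5, 5388442 to 5388702, plus strand, Sscrofa10) had a 5p share of 24.9%, 28.5% and 25.3% at day 180 and 48.2% at day 30. Its 3p arm was at 191, 151 and 146 RPM at day 180 and at 145.3 RPM at day 30, and its 5p arm was at 63.5, 60.4 and 49.4 RPM at day 180 and at 135 RPM at day 30. The ages lay close together in the 3p arm and apart in the 5p arm, and neither was called per read (edgeR adjusted p = 0.911 for 3p and 0.124 for 5p). With TMM factors the 3p arm was called higher (log2 fold change 1.68, edgeR adjusted p = 0.0361). Its sequences were the same in all 4 libraries and are shown because this hairpin was the most abundant putative new one at day 180.
PN-5388442-5p: aTGTCCGCgggttccctatcc
PN-5388442-3p: aTGCGGAAcctgcggatacgg

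**Figure D3:**
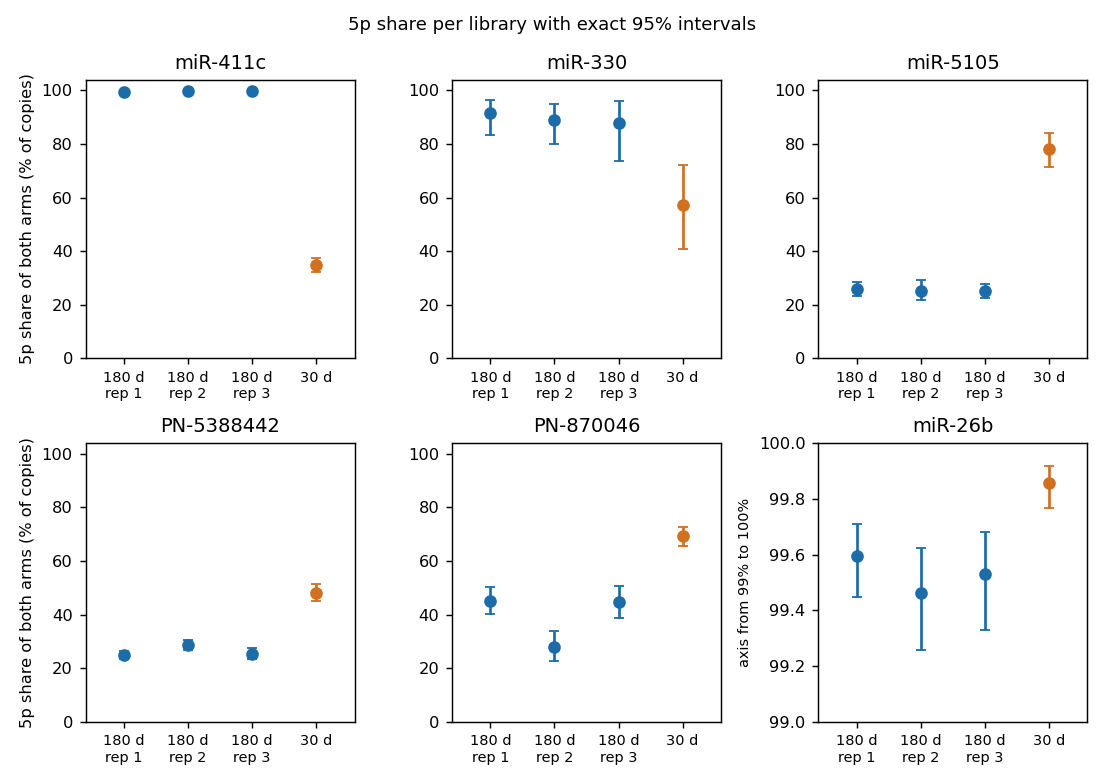
Share of the 5p arm in the copies of both arms (vertical, percent) in each day 180 library (blue) and in the day 30 library (orange) for the 6 hairpins whose ages were apart, with exact 95% intervals. The axis of miR-26b covers only 99% to 100%. The 5p share was higher at day 180 for miR-411c and miR-330 and lower for the other 4.

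In the other 3 of the 6, the 5p share was lower at day 180. It was 99.6%, 99.5% and 99.5% at day 180 and 99.9% at day 30 for miR-26b, whose 3p arm is rare at both ages. It was 25.8%, 25.3% and 25.1% at day 180 and 78.2% at day 30 for miR-5105, and 45.2%, 27.9% and 44.7% at day 180 and 69.2% at day 30 for PN-870046. In miR-5105 and PN-870046 the sequences counted as 5p were not the same at both ages, as given below.

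X-linked precursors of the CLCN5 gene region, another microRNA cluster, were represented by mir-188 (X, 48632378 to 48632485) and mir-660 (X, 48640809 to 48640903, both on the plus strand of Sscrofa10). Both arms of mir-188 were called lower and the arm of mir-660 was not. miR-188-5p stood at 1.31, 0.479 and 1.44 RPM at day 180 and at 29.6 RPM at day 30 (log2 fold change −4.76 ± 0.75 SE, edgeR adjusted p = 0.00136). Its partner arm miR-188-3p stood at 0.489, 0.767 and 0.776 RPM at day 180 and at 15.8 RPM at day 30 (−4.51 ± 1.08 SE, edgeR adjusted p = 0.0161, and 0.102 without day 180 replicate 2). With TMM factors neither was called (edgeR adjusted p = 0.124 for 5p and 0.343 for 3p). miR-660-5p stood at 138, 68.1 and 99.5 RPM at day 180 and at 230 RPM at day 30 (−1.18 ± 0.42 SE, edgeR adjusted p = 0.0755). Its groups did not overlap, it was called without day 180 replicate 1 (0.0315) and with the conserved table tested alone (0.0401), and its log2 fold change was 0.32 with TMM factors. Whether miR-188 and miR-660 differ in their change was not tested. At base 22, counted from 1 at the 5′ end, the most abundant miR-188-5p sequence had T in all 3 day 180 libraries and A at day 30. The day 180 sequence was found base for base in the listed precursor and the day 30 sequence was not.

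miR-26b-5p, of a family with a described role in muscle differentiation of the mouse, was the most abundant arm of these tables at both ages. It stood at 802, 640 and 704 RPM at day 180 and at 3184 RPM at day 30, without overlap (log2 fold change −2.15 ± 0.30 SE, edgeR adjusted p = 0.000351). With TMM factors it was at −0.63 and not called (edgeR adjusted p = 0.166). miR-26b-3p stood at 3.26, 3.45 and 3.32 RPM at day 180 and at 4.60 RPM at day 30 (−0.46 ± 1.02 SE, edgeR adjusted p = 0.826, and 1.07 on the log2 scale with TMM factors). PN-24885174-5p (chromosome 13, 24885174 to 24885436, minus strand, Sscrofa10) has the seed of miR-26b-5p, TCAAGTA, and a similar sequence after it.
PN-24885174-5p: tTCAAGTAacccaggataggctt
It stood at 4.73, 4.12 and 2.99 RPM at day 180 and at 19.6 RPM at day 30, again without overlap, and was not called (edgeR adjusted p = 0.2), though it was with 2 copies put in empty cells (0.0192), with only the libraries of both ages (0.0327) and without 7 years replicate 3 (0.0343). Of the list of microRNAs with a described role in muscle progenitors or differentiation, 3 arms had 10 or more copies, namely miR-26b-5p, miR-26b-3p and miR-431-5p, and 2 of the 3 were called lower, none with TMM factors.

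Another shared seed, AGTGCAA, joined miR-454-3p, miR-301b-3p and miR-301a-3p. miR-454-3p (chromosome 12, 37088039 to 37088181, plus strand, Sscrofa10) had 2.04, 1.72 and 1.33 RPM at day 180 and 13.5 RPM at day 30 and was called lower (log2 fold change −2.98 ± 0.71 SE, edgeR adjusted p = 0.0114, with TMM factors 0.406, and 0.0642 without day 180 replicate 2). miR-301b-3p had 7.18, 3.55 and 4.99 RPM at day 180 and 12.9 RPM at day 30, without overlap, and was not called (log2 fold change −1.30, edgeR adjusted p = 0.299, and 0.19 on the log2 scale with TMM factors). miR-301a-3p, whose precursor lies next to that of miR-454 (chromosome 12, 37079084 to 37079169, plus strand), had 34.2 and 23.2 RPM in day 180 replicates 1 and 2 and was listed neither in replicate 3 nor at day 30. Against the floor of 3 copies in the day 30 library its day 180 mean was at least 22.2-fold higher. That bound takes an empty cell as 3 copies at most. This is uncertain here, as the arm had 419 and 242 copies in replicates 1 and 2 and an empty cell in replicate 3. miR-301a-3p was not called (edgeR adjusted p = 0.459), but was with DESeq2's Wald test (adjusted p = 0.000462).

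Some conserved arms outside these lists were lower as well. miR-33a-5p, which lies within the gene of a regulator of cholesterol synthesis in mammals, stood at 0.816, 0.958 and 0.554 RPM at day 180 and at 18.1 RPM at day 30 (edgeR adjusted p = 0.00547, with TMM factors 0.289, and 0.0677 without day 180 replicate 2). miR-1983-3p stood at 1.71, 1.82 and 0.886 RPM at day 180 and at 52.6 RPM at day 30 (edgeR adjusted p = 0.00139, with TMM factors 0.0859). Day 30 was above all day 180 libraries in both. The most abundant sequences listed for miR-1983-3p were not found base for base in its listed precursor in any of the 4 libraries. That of day 180 replicate 3, of 27 nt, differed from the 21-nt sequence of the other libraries of these ages. These 2 arms were picked after their values were seen.

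Markers of muscle and of other tissues were few in these tables. The tables took 1.04% of the reads at day 30 and 0.257% to 0.322% at day 180. The sources used here do not say if they cover every microRNA of the pig. A marker missing from them is therefore not shown to be missing from the muscle. Of the striated muscle list (miR-1, miR-133, miR-206, miR-208, miR-486 and miR-499), 4 arms were in the tables and 2 had 10 or more copies here, while no arm of miR-133 or miR-206 is among those described. miR-208a-3p, which lies within a gene of cardiac myosin (precursor on chromosome 7, 81043844 to 81043943, minus strand, Sscrofa10), had no copies listed at day 180 and 27 copies, or 7.77 RPM, at day 30. Against 3 copies in each day 180 library this is at least 26.9-fold lower (edgeR adjusted p = 0.00788). It was not called with TMM factors (0.196), without day 180 replicate 2 (0.0825) or without 7 years replicate 2 (0.108). miR-1-2-3p had 0.245, 0.383 and 0 RPM at day 180 and 4.89 RPM at day 30, and was not called (edgeR adjusted p = 0.269), though it was with the conserved table tested alone (0.027) and with 2 copies put in empty cells (0.000271). In day 180 replicate 2 its most abundant sequence began at base 53 of the listed precursor and had another seed. In replicate 1 and at day 30 the sequence began at base 73.

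Among markers of other cells, the blood marker miR-223-3p stood at 3.67, 7.57 and 2.22 RPM at day 180 and at 4.03 RPM at day 30, which is within the range of day 180 (edgeR adjusted p = 1). The epithelial markers miR-141-3p and miR-96-5p together were at 2.20, 1.25 and 1.88 RPM at day 180 and at 13.5 RPM at day 30, and neither was called (edgeR adjusted p = 0.238 and 0.317). Both were called lower with the conserved table tested alone (edgeR adjusted p = 0.0191 and 0.0412) and with 2 copies put in empty cells (0.00467 and 0.000442). No arm of the endothelial (miR-126), liver (miR-122) or smooth muscle (miR-143 and miR-145) lists was in the tables, and no neural arm reached 10 copies. The part of other cell types in the differences was not tested.

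Of the 3 arms called higher at day 180, PN-7444591-3p had the largest fold. Its listed interval lies on chromosome 2, 7444591 to 7444852, minus strand, of Sscrofa10, and the same 22-nt sequence was listed as most abundant at day 180. It stood at 173, 120 and 110 RPM at day 180 and at 7.19 RPM at day 30, where it had 25 copies, so the groups were far apart (log2 fold change 4.22 ± 0.71 SE, edgeR adjusted p = 0.00102, with TMM factors 5.72 and 0.000121). It was called in every one of the 16 alternatives tried for it. Over the series it was at 6.15 RPM in the fetus, 2.01 RPM at day 0, 7.19 RPM at day 30, 134.4 ± 33.4 RPM at day 180 (SD, n = 3) and 49.99 to 83.5 RPM at 7 years.

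miR-5105-3p stood at 60.6, 40.7 and 84.1 RPM at day 180 and at 10.6 RPM at day 30 (log2 fold change 2.54 ± 0.79 SE, edgeR adjusted p = 0.0386, with TMM factors 4.08 and 0.0217). The groups did not overlap, but the call per read ended in 5 of the 6 fits that left out a replicate, namely without day 180 replicate 1 (0.0625), 2 (0.0946) or 3 (0.115) and without 7 years replicate 2 (0.124) or 3 (0.0815). The sequence listed for it was also 1 base longer at day 30.
miR-5105-3p at day 180: cTTCTGATcgaggccc
miR-5105-3p at day 30: cCTTCTGAtcgaggccc
miR-5105-5p at day 180: cCAAGTCCttctgatcgaggccc
miR-5105-5p at day 30: cCCCGGCGccgctcgtgg
These sequences are set side by side because the day 180 product listed as 5p contains all 16 bases of that listed as 3p, and because the day 30 product listed as 5p is another stretch of the precursor. miR-5105-5p stood at 21.1, 13.8 and 28.1 RPM at day 180 and at 38.3 RPM at day 30 (edgeR adjusted p = 0.447).

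mir-5105 (chromosome 6, 870882 to 870961) belongs to 5 precursors on the minus strand between 866649 and 870961, the others being mir-2887-2, mir-2904-3, mir-6087 and mir-716a. This block was picked from earlier results on these data and gets no test as a group. Its 9 arms summed to 118, 110 and 185 RPM at day 180 and to 88.0 RPM at day 30. Of the 8 that could be tested, miR-5105-3p was called higher and 7 were not called. miR-716a-3p stood at 25.2, 40.7 and 50.4 RPM at day 180 and at 10.6 RPM at day 30, without overlap (edgeR adjusted p = 0.198, with TMM factors 0.0734 and with DESeq2 size factors 0.0411). For 6 of the 9 arms the seed of the most abundant day 30 sequence was that of no day 180 library. The same held for 1 of 34 other conserved arms listed at both ages (miR-330-3p), for 0 of the 16 DLK1-DIO3 arms and for 6 of 43 putative new arms. The median GC content was 68.4% in the block, 42.9% in the other conserved arms and 55.3% in the putative new arms, and 5 of 9, 34 of 37 and 61 of 90 arms were 20 to 24 nt long.

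**Figure D4:**
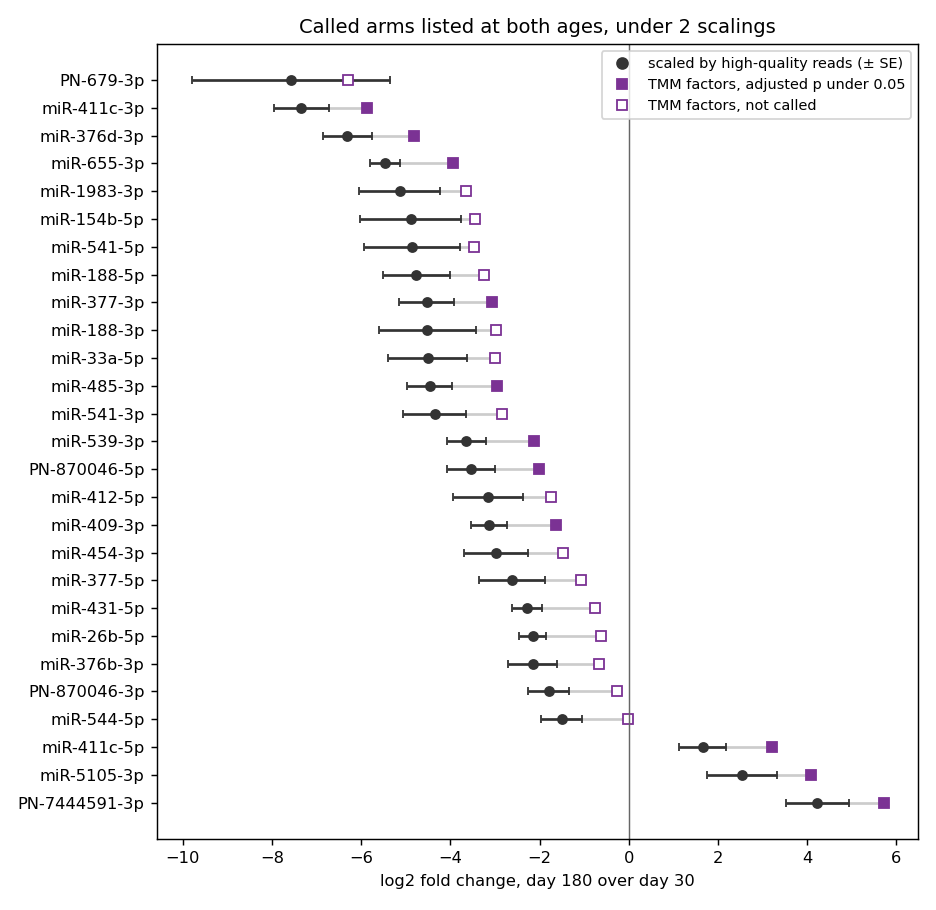
Log2 fold change of day 180 over day 30 for the called arms listed at both ages, scaled by high-quality reads (circles with SE) and with TMM factors (squares, filled where the adjusted p was under 0.05). Each square lies to the right of its circle, and for miR-544-5p it lies at about 0. The lower arms with filled squares include miR-655-3p, miR-411c-3p and miR-376d-3p.

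Putative new arms called lower numbered 9. PN-870046-5p stood at 14.4, 7.00 and 14.4 RPM at day 180 and at 139 RPM at day 30 (log2 fold change −3.54 ± 0.54 SE, edgeR adjusted p = 0.000534, with TMM factors −2.02 and 0.044). The most abundant day 30 sequence began at base 31 of the listed precursor and those of day 180 began at base 86, so the counts of the 2 ages are led by different products. PN-870046-3p, with the same sequence at both ages, stood at 17.4, 18.1 and 17.8 RPM at day 180 and at 61.8 RPM at day 30 (−1.80 ± 0.46 SE, edgeR adjusted p = 0.0161, with TMM factors −0.26 and 0.772).
PN-870046-5p at day 180: cCCCCGCGggggcgcttccccgcc
PN-870046-5p at day 30: cCCGGGGCcgagggagtgagacc

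Of the 9, 6 were listed in no day 180 library. With the floor of 3 copies per library, PN-19684419-3p (chromosome 2) was at least 93.8-fold lower, PN-65076824-3p (chromosome 9) at least 54.9-fold, PN-32286946-5p (chromosome 14) at least 50.9-fold, PN-40675019-5p (chromosome 16) at least 48.9-fold, PN-151102661-5p (chromosome 2) at least 28.9-fold and PN-7563663-3p (chromosome 9) at least 11.0-fold. Their day 30 levels ran from 3.16 RPM for PN-7563663-3p to 27.04 RPM for PN-19684419-3p. PN-32286946-5p alone of them was called with TMM factors (edgeR adjusted p = 0.0427) and in all 6 fits that left out a replicate. PN-19684419-3p was not called without 7 years replicate 2 (0.0619), PN-40675019-5p neither without it (0.0811) nor without day 180 replicate 2 (0.058), and PN-65076824-3p in none of the 6 (0.0697 to 0.21). PN-151102661-5p and PN-7563663-3p were not called without day 180 replicate 2 (0.128 for both) or 3 (0.0685 and 0.0866) or without 7 years replicate 1 (0.0513 and 0.0594) or 2 (0.131 and 0.147). PN-7563663-3p was also not called without 7 years replicate 3 (0.0575). Its whole sequence lies within that of PN-870046-3p, which had 213, 189 and 161 copies in the day 180 libraries. The bound for PN-7563663-3p thus holds for that entry and not for its sequence. The same applies to PN-65076824-3p. Its whole sequence lies within the most abundant sequence of PN-65076824-5p in day 180 replicate 2, where that entry had 10 copies. Joined, these entries had 0, 0.958 and 0 RPM at day 180 and 17.3 RPM at day 30 (edgeR adjusted p = 0.033, with TMM factors 0.22).

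The ninth, PN-679-3p, is listed on the mitochondrial sequence (679 to 939, minus strand, Sscrofa10). It had 3 copies in day 180 replicate 1 and none in the others, against 69 copies or 19.8 RPM at day 30. The ratio of day 30 to the pooled day 180 libraries was 210, with an exact 95% counting interval from 68.9 to 1042 (edgeR adjusted p = 0.0375, with TMM factors 0.213). Its call ended in 5 of the 6 fits that left out a replicate, without day 180 replicate 2 (0.202) or 3 (0.134) and without 7 years replicate 1 (0.0559), 2 (0.119) or 3 (0.0536). The most abundant sequences of the 2 ages began at different bases of the interval, and entries of that locus joined by shared sequence had 1.06, 0.767 and 0.443 RPM at day 180 and 21.6 RPM at day 30 (edgeR adjusted p = 0.00151).

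Some arms listed at one age only overlapped an entry listed at the other age. In all, 14 arms were listed at day 30 only, of which 1 was conserved (miR-208a-3p), and 36 at day 180 only. Of the 36, 13 had a day 180 mean at or under the day 30 floor, so their absence at day 30 was not detectable at that depth. An overlapping entry that shares 16 or more bases was listed at the other age for 3 of the 14 and for 11 of the 36.

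PN-1631-3p and PN-1633-3p show this for an abundant locus, and their sequences begin at different bases of it and so have different seeds.
PN-1631-3p: tGGTGCCTgacgtcttggcagt
PN-1633-3p: tGTGGTGCctgacgtcttggca
PN-1631-3p was at 11.4, 0 and 0 RPM at day 180 and at 446 RPM at day 30, and PN-1633-3p was at 0, 10.2 and 15.1 RPM at day 180 and 0 RPM at day 30. Neither was called by itself (edgeR adjusted p = 0.213 and 0.257), although PN-1631-3p was called without day 180 replicate 1 (0.00787), the single day 180 library that listed it, and with 2 copies put in empty cells (0.024). Joined they were at 11.4, 10.2 and 15.1 RPM at day 180 and at 446 RPM at day 30, with no overlap between the ages (log2 fold change −5.19 ± 0.61 SE, edgeR adjusted p = 0.000217, with TMM factors −3.68 and 0.00497).

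**Figure D5:**
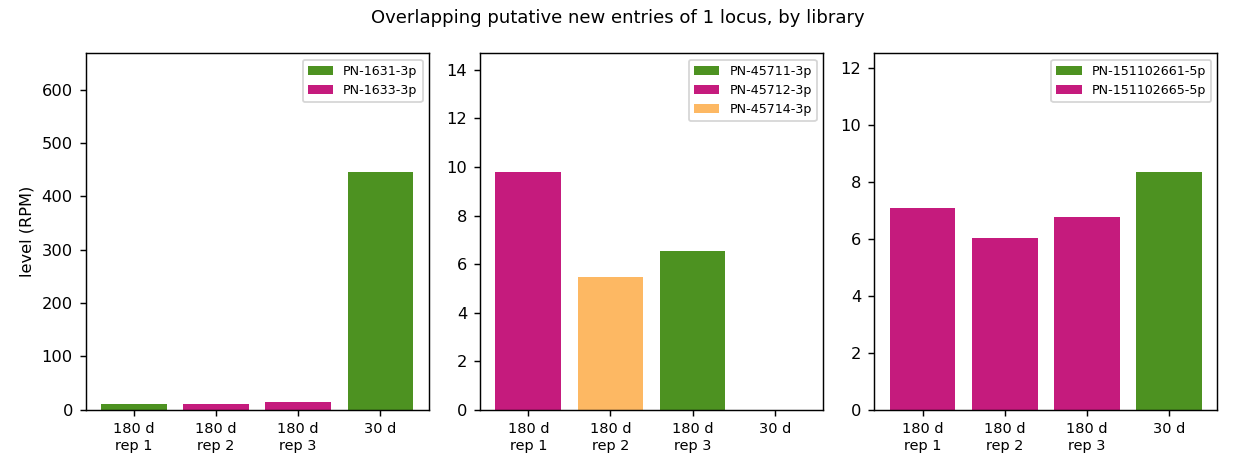
Level (RPM) in each library of overlapping putative new entries, stacked by entry, for 3 loci. In the left panel the sum stands at 10.2 to 15.1 RPM at day 180 and at 446 RPM at day 30, in the middle panel at 5.46 to 9.79 RPM at day 180 and at 0 at day 30, and in the right panel at 6.04 to 7.10 RPM at day 180 and 8.34 RPM at day 30.

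At the locus of PN-151102661-5p and PN-151102665-5p, the first entry was listed at day 30 only and the second at day 180 only. Joined they had 7.10, 6.04 and 6.76 RPM at day 180 and 8.34 RPM at day 30 and were not called (log2 fold change −0.33 ± 0.64 SE, edgeR adjusted p = 0.757), whereas PN-151102661-5p by itself was among the arms called lower. PN-32286946-5p, joined with its neighbours, had 1.71, 0.862 and 0.443 RPM at day 180 and 15.5 RPM at day 30 and was called lower (−3.90 ± 0.80 SE, edgeR adjusted p = 0.00678). In the other direction, PN-45711-3p, PN-45712-3p and PN-45714-3p were each listed in 1 day 180 library. Joined they had 9.79, 5.46 and 6.54 RPM at day 180 and none at day 30 (edgeR adjusted p = 0.00315), and their 18-nt sequence is the start of that of PN-5388442-3p shown above. PN-30185188-3p had 10.2, 9.77 and 12.3 RPM at day 180 and 0.863 RPM or 3 copies at day 30, and was not called by itself (edgeR adjusted p = 0.0647). It was called higher by itself with TMM factors (log2 fold change 5.13, edgeR adjusted p = 0.0302) and with its neighbour joined (0.0303), which added no copies at these ages.

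The lower bounds for arms listed at day 180 only were smaller. After miR-301a-3p they were at least 9.75-fold for PN-1633-3p, 7.68-fold for PN-151102665-5p, 5.82-fold for PN-151102665-3p and 4.65-fold for PN-14862192-5p, and none of these was called per read in the fit of all libraries. With only the libraries of both ages, PN-151102665-5p and PN-151102665-3p were called higher (edgeR adjusted p = 0.0126 and 0.0204). These bounds hold for the entries and not for their loci. PN-151102665-3p joined with its neighbours had 5.55, 5.65 and 3.88 RPM at day 180 and 1.44 RPM at day 30 (log2 fold change 1.79 ± 1.05 SE, edgeR adjusted p = 0.22, with TMM factors 0.0476). PN-14862192-5p joined with its neighbour had 0, 6.71 and 5.32 RPM at day 180 and 1.73 RPM at day 30 (1.20 ± 2.85 SE, edgeR adjusted p = 0.825). The sequence of PN-14862192-5p is also listed as PN-133590719-5p, with 113, 70 and 48 copies at day 180 and 6 copies at day 30.

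The 82 tested arms without a call included some of the more abundant ones. miR-6529-5p stood at 107, 57.3 and 49.1 RPM at day 180 and at 71.9 RPM at day 30, within the range of day 180. miR-590-3p stood at 12.9, 10.2 and 11.2 RPM at day 180 and at 24.7 RPM at day 30 (log2 fold change −1.11, edgeR adjusted p = 0.201, and 0.40 on the log2 scale with TMM factors). In the 40 arms that had 10 or more copies in each of the 4 libraries, where a listing in only 1 library plays no part, 11 were called lower and 3 higher, and the day 30 value was above the day 180 range in 26, below it in 8 and within it in 6. At the edge of the selection, 7 arms had a highest count of exactly 10 copies, reached at day 180 by 6 and at day 30 by 1, and 4 arms left out had a highest count of 9, reached by 2 at each age.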

How the data were processed

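Small RNA of the longissimus dorsi, selected on a gel by size, was read on the Genome Analyzer II of Illumina, per the labels. Counts of copies, in whole numbers per miRNA and library, were deposited with the main sequence of each, per the file headers, which also give the high-quality reads and place precursors on Sscrofa10. An aligner, a miRNA caller and rules for it were not given in the sources used here. Of the conserved cells 416 were empty (46.2%), as were 76.1% of the putative new ones. No cell held a written 0 and 5 held 1 or 2 copies, so an empty cell may stand for a few copies.

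Counts of all 9 libraries, grouped by the age in the labels, were fitted with edgeR 4.0.16 in R 4.3.3 (robust dispersion and quasi-likelihood fit, filterByExpr with a minimum count of 10 and a minimum total of 15), with the high-quality reads as library size and a term per age. Day 180 was contrasted with day 30, p-values were adjusted by Benjamini-Hochberg over all 175 tested arms, and the threshold was 0.05. The lone day 30 library is taken to vary as much as the replicated ages do. The standard error was derived from F and the log2 fold change. Folds of listed arms are ratios of mean RPM, and folds against an age without copies are lower bounds against 3 copies per library. Such a bound holds only where an empty cell stands for 3 copies at most. Shares of 5p carry exact (Clopper-Pearson) 95% intervals, which, like floors, cover counting error only. Entries of 1 locus were joined where their sequences share 16 or more bases. Alternatives were TMM factors, DESeq2 1.42.0 (size factors and Wald test), other filters, fewer libraries, the conserved table by itself, empty cells set to 2 copies, joined entries and leaving out each replicate of day 180 and 7 years. The code was tested on simulated data, whose spread was set below that of these counts. That test therefore gives no rate of false calls for these data.

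The members, gene lists and tests were chosen with earlier results of these data known. Named arms are the 10 largest called changes in each direction among arms with 10 or more copies in all 4 libraries, the 5 largest lower bounds in each direction, the 10 most abundant arms, list members with 100 or more copies and hairpins whose 5p shares were apart. Other arms named were chosen after their values were seen. Lists of miRNAs of the miR-17 type and of the miR-15 and miR-16 type had no arm in the tables. Arms whose chromosome field named none (39 of them) carry no coordinates. Python 3.11.15 with pandas 2.3.3, numpy 2.4.6, scipy 1.17.1 and matplotlib 3.10.9 served for tables, intervals and plots.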

Additional observations from a re-analysis of the deposited data

How the results depend on the processing

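The 31 arms called lower and the 3 called higher depended most on the scaling between libraries. Calls numbered 9 lower and 6 higher with TMM factors, 8 and 6 with DESeq2 size factors, and 9 and 14 with DESeq2's Wald test. They numbered 18 and 5 with only the libraries of day 180 and day 30, 54 and 5 with empty cells set to 2 copies, 5 higher with overlapping entries joined, and 18 and 13 with joined entries and TMM factors together, an alternative chosen after seeing the data. Leaving out 1 replicate of day 180 or 7 years gave 16 to 32 lower and 1 to 3 higher. The lowest counts were 16 lower without day 180 replicate 2 and 18 without 7 years replicate 2, with 1 higher in both. Of the 34 called arms, 16 were called in all 6 of these fits, 15 lower and 1 higher.

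Relative to the bulk of arms some directions turned. In the order of TMM factors, DESeq2 size factors, DESeq2's Wald test and joined entries with TMM factors, the log2 fold change was 1.07, 1.19, 1.19 and 1.03 for miR-26b-3p, 1.24, 1.39, 1.40 and 1.20 for miR-330-5p, 0.68, 0.76, 0.76 and 0.64 for miR-5105-5p, 0.32, 0.45, 0.45 and 0.28 for miR-660-5p, and 0.30, 0.43, 0.43 and 0.26 for PN-5388442-5p. miR-544-5p was at 0.14 with DESeq2 size factors and with its Wald test. Per read, PN-151102665-5p was at −0.33 with overlapping entries joined, and at 1.15 when they were joined and scaled with TMM factors.

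Log2 ratios of sums also moved when taken as shares of the copies in both tables. They were −0.16 for the conserved table (−2.03 per read), 0.81 for the putative new table (−1.06), −0.35 for the DLK1-DIO3 list (−2.22), 0.43 for the X-linked list (−1.41), −0.34 for the muscle progenitor list (−2.21), 2.08 for the blood list (0.16) and −1.16 for the epithelial list (−3.02). Without the most abundant arm they were −0.44 for the putative new table, −4.70 for the X-linked list and −4.17 for the epithelial list. The blood list ranged from −0.45 to 0.48 when 1 day 180 replicate was left out. The cause of these shifts was not tested. The differences in 5p share kept their direction in every alternative that kept the hairpin. Among these, setting empty arms to 2 copies could not change a share, as no arm of these hairpins was empty. Asking for 50 copies per hairpin and library could not change a share either. It left out miR-330, which had 42 copies at day 30. The others left out a day 180 replicate, and none varied the day 30 library. No paired analysis was possible because day 30 has 1 library without a replicate number. Depth limits the day 30 side most, where 3 copies correspond to 0.863 RPM.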
